A study of Rattus norvegicus with 9 samples.

Results

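Complex I of the respiratory chain was followed in cultured rat heart muscle cells that carried an adenovirus for Nfya, Nfe2l1 or GFP. Every gene of the count table whose symbol begins with Nduf and that held at least 20 counts over the 9 libraries was taken, which gave 45 of 28935 genes. They comprised 7 core subunits, 10 accessory subunits of the matrix arm, 18 accessory subunits of the membrane arm, 8 assembly factors named Nduf, and Ndufa4 with its paralog Ndufa4l2. The fewest counts among the 45 were those of Ndufa4l2 with 21 and Ndufs6 with 128. Below the count threshold lay Ndufa10l1, a paralog entry of Ndufa10, with 13 counts and Ndufa1 with 1 count. Whether these low counts reflect low transcript levels or how reads were assigned to genes was not tested.

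Complex I is the L-shaped entry point of electrons into the respiratory chain: it oxidises NADH in its matrix arm, passes the electrons along iron-sulfur clusters to ubiquinone and pumps protons through its membrane arm. Its core subunits carry the catalysis and are encoded in part by the nucleus and in part by mitochondrial DNA, the accessory subunits stabilise the complex, and the assembly factors help to build it without staying in it. Heart muscle cells are rich in mitochondria and draw most of their ATP from oxidative phosphorylation. The roles named here are known mainly from the human and bovine proteins.

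The cells were neonatal rat ventricular myocytes (NRVMs), taken in primary culture from the hearts of Sprague-Dawley rats 1 or 2 days old, and all of them received a virus. By the labels it carried a transcription factor in the Nfya-labelled and Nfe2l1-labelled libraries and a fluorescent protein, as negative control, in the GFP libraries, with 3 libraries in each group. NFYA gives the CCAAT-box factor NF-Y its sequence specificity, and NFE2L1 is a cap'n'collar factor that induces proteasome genes. All cells spent 48 h in medium with 3% serum and then 48 h with the virus in serum-free medium. Nothing in the labels tells separate cultures from repeated libraries of a single culture, and the p-values therefore measure a spread between libraries that may be technical. The cells are a mixed primary culture read in bulk, and fewer cells of a type and less RNA per cell cannot be told apart.

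Library totals were highest in Nfe2l1-labelled replicate 3, with 7310774 counts, and lowest in GFP replicate 3, with 5712123. Of all genes, 14151 had enough counts to be tested, among them 44 of the 45 complex I genes. The Nfya transcript averaged 89.0 CPM (counts scaled to a common library size, the library total corrected by the TMM method) in the Nfya-labelled libraries, 92.3 CPM in the Nfe2l1-labelled libraries and 80.4 CPM in the GFP libraries. The Nfe2l1 transcript averaged 222.7 CPM in the Nfya-labelled, 239.4 CPM in the Nfe2l1-labelled and 240.7 CPM in the GFP libraries. Neither transcript was highest in the libraries named for its virus, so every direction given here rests on the labels. Cardiomyocyte markers (11 found) summed to 4003 to 4067 CPM in the Nfya-labelled libraries, 3615 to 4001 CPM in the Nfe2l1-labelled libraries and 3780 to 4188 CPM in the GFP libraries, with 2 called higher for Nfya and 1 lower for Nfe2l1 and none at 0. Fibroblast markers (10 found) summed to 1945 to 1965 CPM in Nfya-labelled, 1642 to 1767 CPM in Nfe2l1-labelled and 1053 to 1115 CPM in GFP libraries, with 9 of 10 called higher and 1 lower for Nfya and 9 higher and 0 lower for Nfe2l1. Endothelial markers (7 found) summed to 371 to 389 CPM in Nfya-labelled, 410 to 430 CPM in Nfe2l1-labelled and 287 to 301 CPM in GFP libraries, with 5 called higher and 1 lower with each factor. Smooth muscle and pericyte markers (8 found) summed to 1151 to 1167 CPM in Nfya-labelled, 842 to 880 CPM in Nfe2l1-labelled and 1093 to 1110 CPM in GFP libraries, with 4 higher and 1 lower for Nfya and 1 higher and 3 lower for Nfe2l1. That list holds Des, a muscle gene not limited to these cell types, so its sum does not measure them alone. Macrophage and leukocyte markers (8 found) summed to 83.5 to 97.2 CPM in Nfya-labelled, 95.5 to 109 CPM in Nfe2l1-labelled and 60.0 to 75.8 CPM in GFP libraries, with 5 higher and 1 lower for Nfya and 4 higher and 0 lower for Nfe2l1. Epicardial and mesothelial markers (7 found) summed to 158 to 181 CPM in Nfya-labelled, 183 to 202 CPM in Nfe2l1-labelled and 128 to 138 CPM in GFP libraries, with 6 higher and 1 lower with each factor. The summed levels of these 5 other lists did not overlap between the libraries of either factor and the GFP libraries. Beside these calls, 24.3% of all tested genes were called higher and 27.9% lower for Nfya against GFP. For Nfe2l1 against GFP the shares were 28.9% and 29.7%. No marker of these lists was at 0 in every library, and the part of these cell types in the results on complex I was not tested.

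The summed level of complex I transcripts differed from that of the GFP libraries by 1.45% for Nfya and by -0.81% for Nfe2l1. The 45 genes together made up 2694 ± 2.97 CPM in the Nfya-labelled libraries, 2634 ± 108 CPM in the Nfe2l1-labelled libraries and 2655 ± 74.0 CPM in the GFP libraries (SD, n = 3 each). An exact two-sided permutation test gave p = 0.4 for Nfya against GFP, 0.8 for Nfe2l1 against GFP and 0.7 for Nfya against Nfe2l1, where 0.1 is the smallest p that 3 against 3 libraries allow. Within that sum several assembly factors and a few subunits were called, by small amounts.

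Calls rest on edgeR's quasi-likelihood test with Benjamini-Hochberg adjustment over all 14151 genes and a threshold of 0.05. For Nfya against GFP, 9 of the 44 tested complex I genes were called (20.5%), 7 higher and 2 lower, whereas 52.2% of all tested genes were called, 24.3% higher and 27.9% lower. Their median log2 fold change was 0.01, against -0.02 over all tested genes, and the median size of the change regardless of sign was 0.056 on the log2 scale, against 0.198. For Nfe2l1 against GFP, 12 of 44 were called (27.3%), 6 higher and 6 lower, whereas 58.6% of all tested genes were called, 28.9% higher and 29.7% lower. Their median log2 fold change was -0.02, against -0.01 over all tested genes, and the median size 0.097, against 0.235. Between the factors, for Nfya against Nfe2l1, 4 of 44 were called (9.09%), 3 higher and 1 lower, whereas 50.6% of all tested genes were called, 25.2% higher and 25.4% lower. The median between the factors was 0.04, against 0.01 over all tested genes, and the median size 0.067, against 0.193. The shares called among complex I genes thus lay below the background in each comparison. Complex I genes were also more densely covered, with medians of 0.571, 0.398 and 0.159 counts per base of gene length for 16, 19 and 9 of them. Over all tested genes the median was 0.128, and the part of coverage in the smaller shares and changes was not tested.

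No library of a group overlapped the other group for 12 of the 44 genes in Nfya against GFP (27.3%, against 61.6% of all tested genes), for 15 in Nfe2l1 against GFP (34.1%, against 64.0%) and for 13 in Nfya against Nfe2l1 (29.5%, against 60.0%). A called change of at least 1.2-fold was found for 2 complex I genes in each comparison, against 33.3% of all tested genes for Nfya against GFP, 39.8% for Nfe2l1 against GFP and 31.9% for Nfya against Nfe2l1. The 95% interval of the fold change lay within 1.2-fold in either direction for 33 of the 44 genes in Nfya against GFP, 31 in Nfe2l1 against GFP and 34 in Nfya against Nfe2l1. These intervals come from the test score and can be narrower than its p-value implies. For Ndufs7 in Nfe2l1 against GFP the interval was -0.19 to -0.02 (log2), yet the unadjusted p was 0.0825 (edgeR's quasi-likelihood test). The counts of intervals within a bound may therefore be too high. Within 1.5-fold lay 42 of the 44 intervals in Nfya against GFP, 41 in Nfe2l1 against GFP and 43 in Nfya against Nfe2l1. The genes without a call whose interval reached past 1.2-fold were Ndufa12, Ndufc1, Ndufs5 and Ndufs6 in Nfya against GFP and Ndufa12, Ndufa13, Ndufa3, Ndufs5 and Ndufs6 in Nfe2l1 against GFP.

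**Figure D1:**
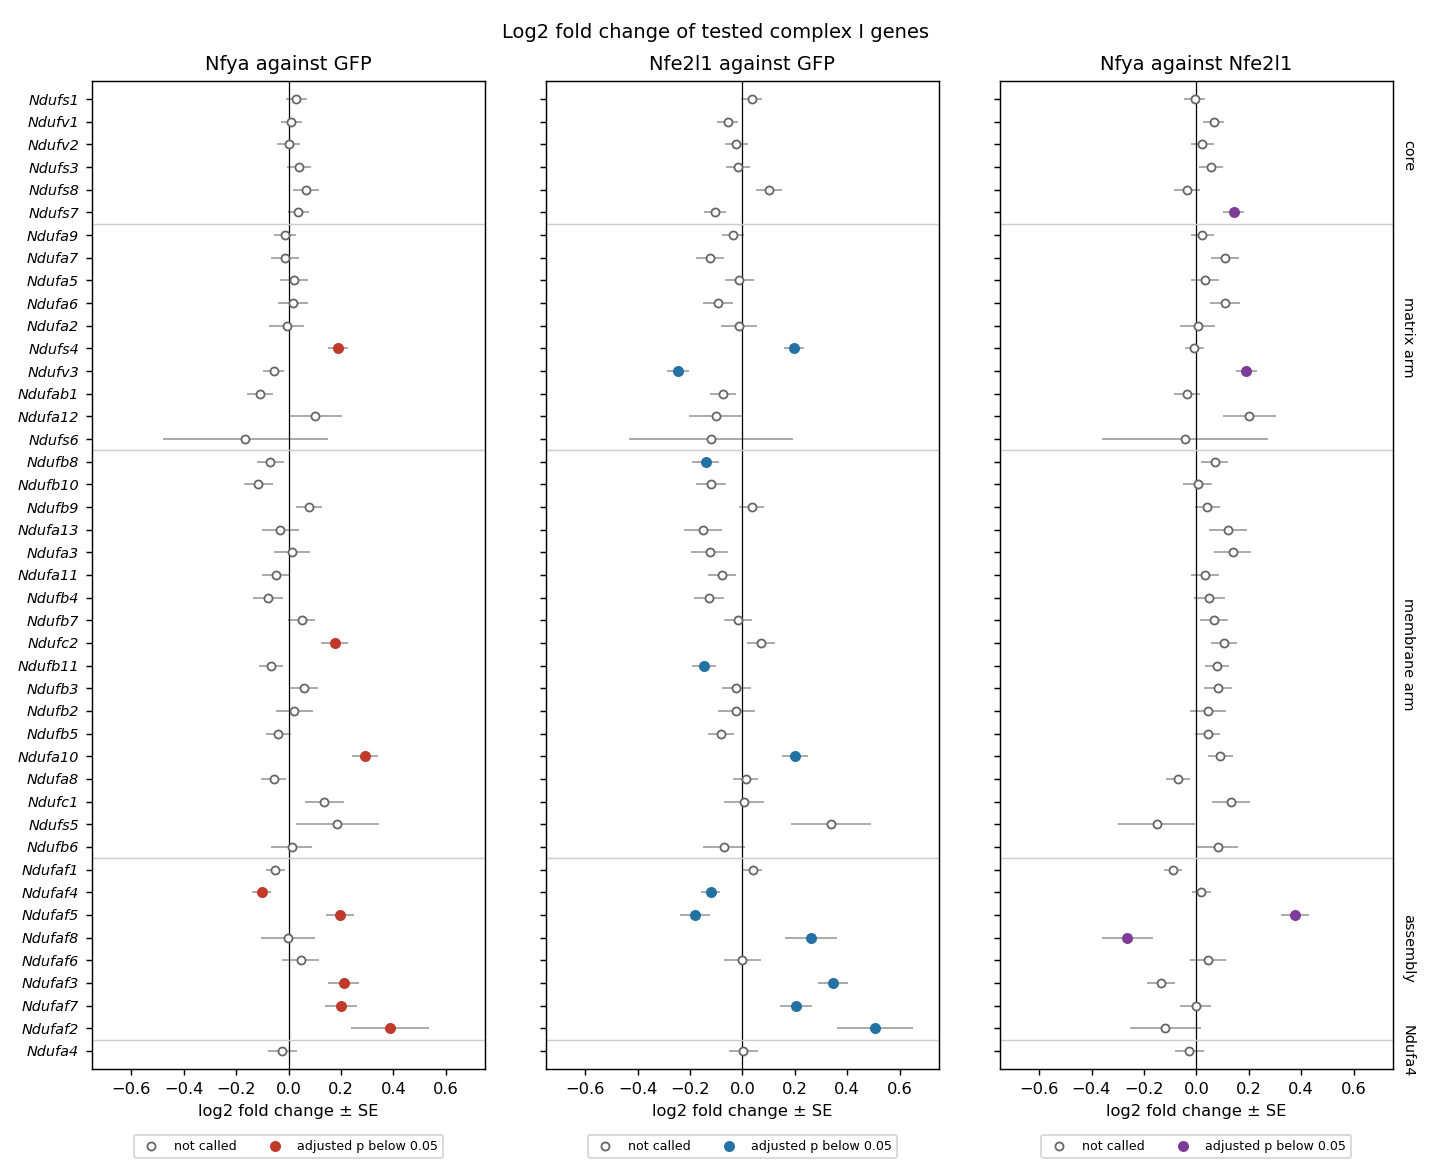
Log2 fold change ± SE (x axis) of 43 tested complex I genes (y axis, by role and then by level in GFP libraries) for each comparison, from 3 libraries per group. Filled points have an adjusted p below 0.05 and open points do not. Most points sit near 0, the assembly factors spread from -0.10 to 0.39 for Nfya and from -0.18 to 0.50 for Nfe2l1 against GFP, and Ndufaf5 falls on opposite sides of 0 with the factors.

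The comparisons with GFP share the GFP libraries, so the calls are set side by side without a test of their overlap. Called higher with each factor were Ndufa10, Ndufs4, Ndufaf2, Ndufaf3 and Ndufaf7, and called lower with each was Ndufaf4, among the genes reported here. Ndufaf5 was higher in Nfya-labelled and lower in Nfe2l1-labelled libraries than in GFP libraries. Ndufc2 was called higher for Nfya alone, Ndufaf8 higher and Ndufv3, Ndufb8 and Ndufb11 lower for Nfe2l1 alone, and 31 of the 44 were called in neither. Of the 25 calls of single genes over the 3 comparisons, 8 held under all 20 alternative settings. These 8 were Ndufa10 and Ndufs4 against GFP with each factor, Ndufaf2, Ndufaf3 and Ndufv3 in Nfe2l1 against GFP, and Ndufaf5 in Nfya against Nfe2l1.

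Levels per length (RPKM, the deposited counts scaled by gene length and library size) differed between the roles in their medians, with ranges that overlapped except between core subunits and assembly factors. In GFP libraries the core subunits lay between 61.6 and 100 RPKM with a median of 84.5, the matrix arm accessory subunits between 6.64 and 96.4 RPKM with a median of 53.7, and the membrane arm accessory subunits between 38.7 and 106 RPKM with a median of 76.6. The assembly factors lay between 11.6 and 44.3 RPKM with a median of 29.3. Ndufb8, a membrane arm subunit, had 102 ± 1.25 RPKM in Nfya-labelled, 96.2 ± 6.13 in Nfe2l1-labelled and 106 ± 4.13 in GFP libraries (SD, n = 3 each), and Ndufs1, a core subunit, had 103 ± 1.24, 102 ± 3.76 and 99.99 ± 5.09 RPKM in the same groups. Ndufb8 thus had the highest mean in GFP libraries and Ndufs1 in the libraries of both factors. Ndufs6, a zinc-binding matrix arm subunit, was the lowest of the tested complex I genes at 5.99 ± 2.23 RPKM in Nfya-labelled, 6.08 ± 1.34 in Nfe2l1-labelled and 6.64 ± 1.21 in GFP libraries.

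**Figure D2:**
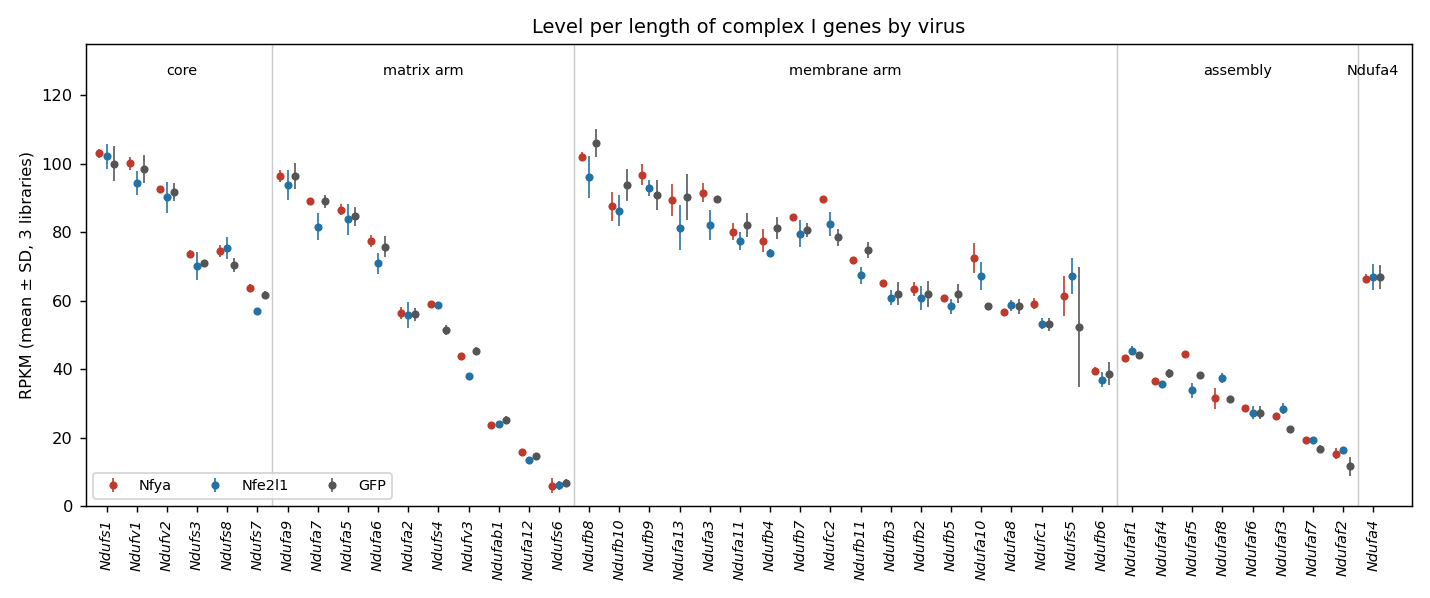
Level per length in RPKM (y axis, mean ± SD over 3 libraries) of 43 tested complex I genes (x axis, by role and then by level in GFP libraries) in Nfya-labelled, Nfe2l1-labelled and GFP libraries. Core and membrane arm subunits lie mostly above the assembly factors, which end at 44.3 RPKM in GFP libraries, and the wide bar of Ndufs5 comes from 1 GFP library.

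The core subunits, which hold the flavin and the iron-sulfur clusters, had small changes. Their median log2 fold change was 0.03 for Nfya and -0.02 for Nfe2l1 against GFP. Ndufs1, the large iron-sulfur subunit and the core subunit with the highest level per length, had 250.1, 256.4 and 252.5 CPM in Nfya-labelled replicates 1, 2 and 3, 260.4, 261.6 and 240.9 CPM in Nfe2l1-labelled replicates and 239.3, 241.4 and 264.3 CPM in GFP replicates. The libraries of the 3 groups overlapped, with the lowest Nfe2l1-labelled value in replicate 3 and the highest GFP value in replicate 3. Its log2 fold change was 0.03 ± 0.04 for Nfya and 0.04 ± 0.04 for Nfe2l1 against GFP, with an adjusted p of 0.574 and 0.477 in edgeR's quasi-likelihood test.

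Ndufs7, which holds the last iron-sulfur cluster before ubiquinone, had 61.3, 63.2 and 61.9 CPM in Nfya-labelled libraries, 56.4, 56.1 and 56.3 CPM in Nfe2l1-labelled libraries and 59.8, 59.8 and 62.3 CPM in GFP libraries. The Nfe2l1-labelled libraries lay below all others. Ndufs7 was called in Nfya against Nfe2l1 (0.14 ± 0.04, adjusted p = 0.0342) and not against GFP (0.04, adjusted p = 0.62, and -0.11, adjusted p = 0.125, in edgeR). The call was lost in 3 of the 9 settings that leave out 1 library (Nfya-labelled replicate 2 or 3, adjusted p = 0.0985 and 0.0616, and Nfe2l1-labelled replicate 2, 0.0730) and in DESeq2 (0.191). Ndufs3, Ndufs8, Ndufv1 and Ndufv2 passed the test in no comparison.

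Among the accessory subunits of the matrix arm, Ndufs4 was higher with both factors and Ndufv3 was lower with Nfe2l1, and the other 8 of 10 passed no test. Ndufs4, which sits at the NADH-oxidising end and whose loss causes Leigh syndrome in humans, had 88.3, 86.9 and 88.6 CPM in Nfya-labelled libraries, 90.02, 89.0 and 86.4 CPM in Nfe2l1-labelled libraries and 76.3, 75.4 and 80.1 CPM in GFP libraries. All 6 libraries of the factors lay above all GFP libraries. Its log2 fold change was 0.19 ± 0.04 for Nfya (adjusted p = 7.29e-04) and 0.20 ± 0.04 for Nfe2l1 (adjusted p = 3.22e-04), and -0.01 between the factors (adjusted p = 0.911, edgeR). Ndufv3, a small accessory subunit of the same end, had 69.0, 67.9 and 67.6 CPM in Nfya-labelled libraries, 60.8, 58.8 and 59.6 CPM in Nfe2l1-labelled libraries and 68.6, 71.1 and 73.1 CPM in GFP libraries. The Nfe2l1-labelled libraries lay apart below the rest, and the Nfya-labelled and GFP libraries overlapped. The log2 fold change was -0.25 ± 0.04 for Nfe2l1 against GFP (adjusted p = 8.33e-05) and 0.19 ± 0.04 for Nfya against Nfe2l1 (adjusted p = 0.00264, edgeR, and 0.0577 in DESeq2). For Nfya against GFP it was -0.06 ± 0.04 (adjusted p = 0.416).

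Ndufa9, a quinone-module subunit, had the highest level per length in the matrix arm group, with 120.2, 121.7 and 117.2 CPM in Nfya-labelled libraries, 120.2, 123.5 and 110.6 CPM in Nfe2l1-labelled libraries and 118.9, 117.2 and 127.2 CPM in GFP libraries. These libraries overlapped between all groups, and neither comparison with GFP was called (adjusted p = 0.823 and 0.493, edgeR). The others without a call were Ndufa2, Ndufa5, Ndufa6, Ndufa7, Ndufa12, Ndufs6 and the mitochondrial acyl carrier protein Ndufab1.

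Among the 18 accessory subunits of the membrane arm, Ndufa10 showed the largest called change. Ndufa10, a subunit with a fold related to nucleoside kinases, had 140.5, 135.6 and 151.8 CPM in Nfya-labelled libraries, 135.9, 142.8 and 124.2 CPM in Nfe2l1-labelled libraries and 116.0, 115.5 and 118.5 CPM in GFP libraries. All 6 libraries of the factors lay above all GFP libraries, while the factors overlapped each other. The change was 0.29 ± 0.05 for Nfya (1.22-fold, adjusted p = 1.38e-04) and 0.20 ± 0.05 for Nfe2l1 (1.15-fold, adjusted p = 0.00294, edgeR). How reads shared with the paralog entry Ndufa10l1 were counted is not given in the sources used here. Ndufc2, a subunit of the proximal membrane arm, had 50.3, 49.9 and 49.4 CPM in Nfya-labelled libraries, 46.6, 48.8 and 43.9 CPM in Nfe2l1-labelled libraries and 43.4, 43.2 and 46.0 CPM in GFP libraries. The Nfya-labelled libraries lay above all others. Ndufc2 was called for Nfya against GFP (0.18 ± 0.05, adjusted p = 0.0196, edgeR) but not by DESeq2 (0.140). It was not called for Nfe2l1 against GFP (0.07 ± 0.05, adjusted p = 0.376) or between the factors (0.11 ± 0.05, adjusted p = 0.176).

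Ndufb8 and Ndufb11, subunits of the distal membrane arm, were lower with Nfe2l1 by small amounts. Ndufb8 had 72.3, 70.7 and 71.3 CPM in Nfya-labelled libraries, 70.7, 71.5 and 62.6 CPM in Nfe2l1-labelled libraries and 73.9, 72.7 and 78.9 CPM in GFP libraries. Its log2 fold change for Nfe2l1 was -0.14 ± 0.05 (adjusted p = 0.0291, edgeR), and without Nfe2l1-labelled replicate 3, the lowest library, it was -0.06 (adjusted p = 0.3998). Ndufb11 had 60.4, 60.2 and 61.4 CPM in Nfya-labelled libraries, 58.6, 59.4 and 54.7 CPM in Nfe2l1-labelled libraries and 63.9, 61.3 and 65.8 CPM in GFP libraries. For both genes every Nfe2l1-labelled library lay below every GFP library, with replicate 3 the lowest of the Nfe2l1-labelled and the highest of the GFP libraries. Ndufb11 changed by -0.15 ± 0.05 (adjusted p = 0.0259, edgeR), and by -0.09 (0.234) without Nfe2l1-labelled replicate 3. For Nfya against GFP neither was called (Ndufb8 adjusted p = 0.287, Ndufb11 0.352). Without GFP replicate 3 the adjusted p for Nfe2l1 was 0.121 for Ndufb8 and 0.0978 for Ndufb11, and without GFP replicate 1 it was 0.0630 for Ndufb8 and 0.0905 for Ndufb11. Ndufb11 also lost its call without Nfe2l1-labelled replicate 1 (0.0594), and DESeq2 called neither (0.201 for Ndufb8 and 0.204 for Ndufb11).

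Ndufs5, a membrane arm subunit on the intermembrane-space side that was singled out after its values were seen, depended on 1 library. It had 32.8, 28.3 and 34.0 CPM in Nfya-labelled libraries, 38.4, 33.2 and 34.1 CPM in Nfe2l1-labelled libraries and 31.7, 33.4 and 16.8 CPM in GFP libraries. GFP replicate 3, with 95 counts against 207 and 226 in the other GFP libraries, stood apart from all 8 others. The log2 fold change was 0.19 ± 0.16 for Nfya and 0.34 ± 0.15 for Nfe2l1 (adjusted p = 0.351 and 0.0711, edgeR). Without that library it turned to -0.04 for Nfya (adjusted p = 0.747) and was 0.11 for Nfe2l1 (0.281), and without GFP replicate 1 or 2 the Nfe2l1 value passed the test (0.46 with an adjusted p of 0.0332 and 0.52 with 0.0133). The other 13 membrane arm subunits passed no test.

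Of the 8 assembly factors, 5 were called for Nfya against GFP (4 higher, 1 lower), beside 52.2% of all tested genes, and 6 for Nfe2l1 against GFP (4 higher, 2 lower), beside 58.6%. With 8 genes these counts lie near the background. Among the 36 tested subunits and Ndufa4, 4 were called for Nfya and 6 for Nfe2l1. The median size of their change was 0.149 for Nfya and 0.192 for Nfe2l1 on the log2 scale, beside 0.198 and 0.235 over all tested genes, and that of the subunits with Ndufa4 was 0.053 for Nfya and 0.080 for Nfe2l1. The assembly factors also had fewer counts per base of gene length, a median of 0.200 against 0.475 for the subunits and Ndufa4, and the part of this in the difference was not tested. No test of the difference between these roles was made.

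Ndufaf5, which hydroxylates an arginine of Ndufs7, moved in opposite directions with the factors. It had 50.9, 49.4 and 50.7 CPM in Nfya-labelled libraries, 40.4, 40.6 and 35.7 CPM in Nfe2l1-labelled libraries and 44.1, 43.4 and 44.4 CPM in GFP libraries. The 3 groups did not overlap, with the GFP libraries between the factors. Ndufaf5 changed by 0.19 ± 0.05 for Nfya against GFP (adjusted p = 0.00948), by -0.18 ± 0.06 for Nfe2l1 against GFP (adjusted p = 0.0218) and by 0.38 ± 0.05 for Nfya against Nfe2l1 (1.30-fold, adjusted p = 2.66e-05, edgeR). The direct comparison of the factors was called under every alternative, but the fall with Nfe2l1 was -0.10 (adjusted p = 0.271) without Nfe2l1-labelled replicate 3, -0.17 (0.0704) without GFP replicate 1 and not called by DESeq2 (0.181). DESeq2 did not call the rise with Nfya either (0.105). Ndufaf8, the partner protein of Ndufaf5, had 14.3, 12.8 and 15.5 CPM in Nfya-labelled libraries, 17.6, 17.6 and 16.1 CPM in Nfe2l1-labelled libraries and 14.1, 14.3 and 14.2 CPM in GFP libraries. The Nfe2l1-labelled libraries lay above all others. Ndufaf8 changed by 0.26 ± 0.10 for Nfe2l1 against GFP (adjusted p = 0.0438) and by -0.26 ± 0.10 for Nfya against Nfe2l1 (adjusted p = 0.0459), and by 0.00 for Nfya against GFP (adjusted p = 0.994, edgeR). With few counts behind it, the call against GFP was lost when any GFP library (adjusted p 0.0639 to 0.0767) or Nfe2l1-labelled replicate 1 or 2 (0.0798 and 0.102) was left out, and in DESeq2 (0.216). The call between the factors was lost in 7 of the 9 settings that leave out 1 library (adjusted p up to 0.217).

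Ndufaf3 and Ndufaf4, which act together on the early quinone module, were called in opposite directions. Ndufaf3 had 41.8, 42.4 and 44.9 CPM in Nfya-labelled libraries, 44.3, 48.6 and 48.7 CPM in Nfe2l1-labelled libraries and 36.3, 38.7 and 36.4 CPM in GFP libraries. All libraries of the factors lay above all GFP libraries. It changed by 0.21 ± 0.06 for Nfya (adjusted p = 0.00974) and by 0.34 ± 0.06 for Nfe2l1 (adjusted p = 7.55e-05, edgeR), and the difference between the factors was -0.13 ± 0.05 (adjusted p = 0.0875). Without Nfya-labelled replicate 3 the Nfya value was 0.18 (adjusted p = 0.0609), and DESeq2 did not call it (0.0957). Ndufaf4 had 112.0, 108.2 and 111.9 CPM in Nfya-labelled libraries, 111.3, 111.5 and 105.4 CPM in Nfe2l1-labelled libraries and 115.2, 117.8 and 124.2 CPM in GFP libraries. Here the GFP libraries lay above all others. Ndufaf4 changed by -0.10 ± 0.04 for Nfya (adjusted p = 0.0369) and by -0.12 ± 0.04 for Nfe2l1 (adjusted p = 0.0103, edgeR). The Nfya call was lost in 7 of the 9 settings that leave out 1 library, all but Nfya-labelled replicate 1 and Nfe2l1-labelled replicate 2 (adjusted p 0.0511 to 0.196), and the Nfe2l1 call without GFP replicate 3 (adjusted p = 0.0856) or Nfe2l1-labelled replicate 3 (0.158). Neither call was made by DESeq2 (adjusted p = 0.312 for Nfya and 0.151 for Nfe2l1) or without a filter on low counts (0.207 and 0.106), and the Nfya call held in 5 of the 20 alternative settings.

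Ndufaf2, which holds the place of Ndufa12 on a late intermediate, showed the largest rise of the 44 genes. It had 16.2, 14.4 and 17.8 CPM in Nfya-labelled libraries, 18.8, 17.1 and 16.8 CPM in Nfe2l1-labelled libraries and 8.89, 14.8 and 13.5 CPM in GFP libraries. The Nfe2l1-labelled libraries lay above all GFP libraries, while Nfya-labelled replicate 2 lay below GFP replicate 2. Ndufaf2 changed by 0.50 ± 0.15 for Nfe2l1 (1.42-fold, adjusted p = 0.00718) and by 0.39 ± 0.15 for Nfya (1.31-fold, adjusted p = 0.0389, edgeR). Without GFP replicate 1, its lowest library, the Nfya value was 0.22 (adjusted p = 0.171), without Nfya-labelled replicate 1 or 3 the adjusted p was 0.0847 and 0.145, and DESeq2 gave 0.0995. Ndufaf7, a protein arginine methyltransferase, had 46.1, 47.3 and 43.7 CPM in Nfya-labelled libraries, 48.4, 44.7 and 44.5 CPM in Nfe2l1-labelled libraries and 42.1, 40.0 and 36.6 CPM in GFP libraries. All libraries of the factors lay above the GFP libraries. It changed by 0.20 ± 0.06 for Nfya (adjusted p = 0.0111) and by 0.20 ± 0.06 for Nfe2l1 (adjusted p = 0.00873, edgeR). Without GFP replicate 3 the calls were lost (0.15 with an adjusted p of 0.0918 and 0.16 with 0.0756), without Nfya-labelled replicate 2 the Nfya call (0.0557), and DESeq2 made neither (0.102 and 0.0963).

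Ndufaf1, a scaffold for the membrane arm and the assembly factor with the highest level per length, had 82.3, 82.4 and 80.8 CPM in Nfya-labelled libraries, 88.5, 84.8 and 87.7 CPM in Nfe2l1-labelled libraries and 86.3, 83.6 and 84.2 CPM in GFP libraries. The Nfya-labelled libraries were the lowest and did not overlap the others, but no comparison was called (adjusted p = 0.425, 0.519 and 0.126, edgeR). Ndufaf6, an early assembly factor, passed no test.

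**Figure D3:**
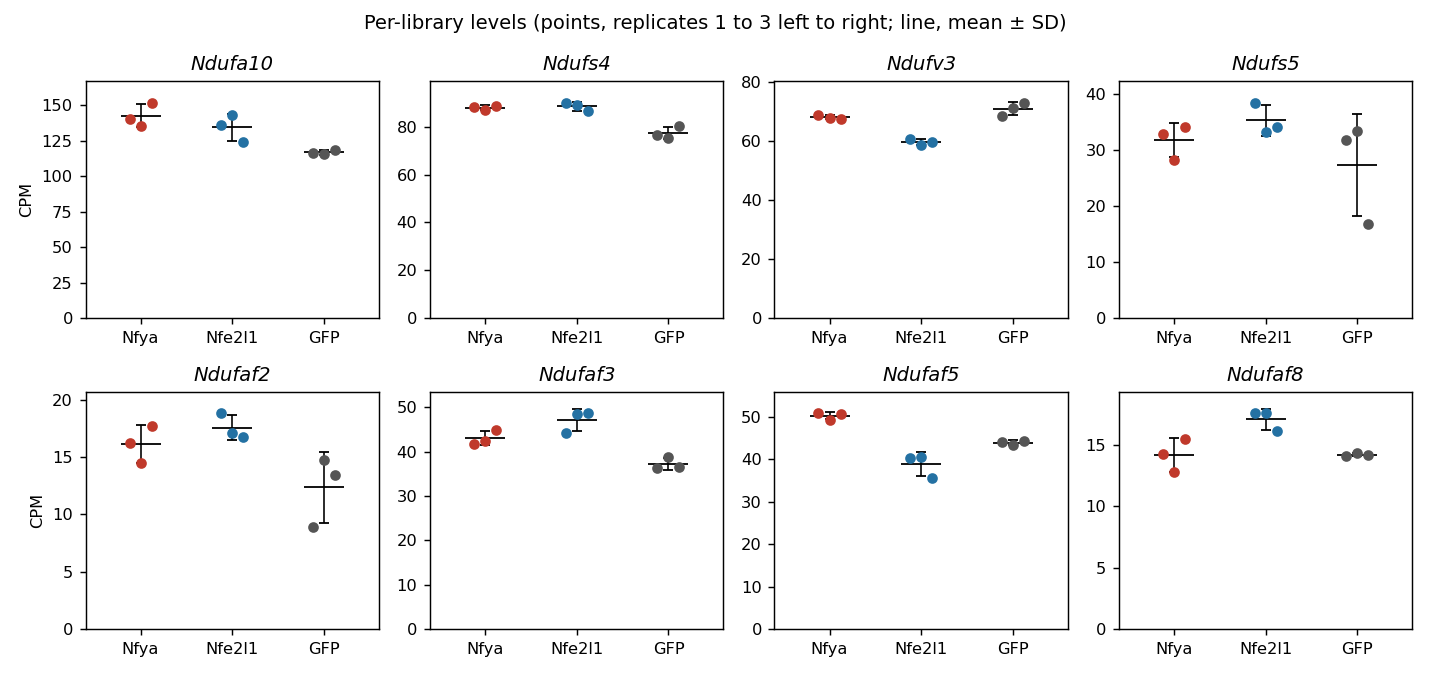
CPM (y axis, from 0) of 8 complex I genes in each library, with replicates 1 to 3 from left to right, and mean ± SD for the Nfya-labelled, Nfe2l1-labelled and GFP libraries (n = 3 each). Ndufa10, Ndufs4 and Ndufaf3 lie higher in all libraries of the factors than in GFP libraries, Ndufv3 is lowest in the Nfe2l1-labelled libraries, Ndufaf5 separates all groups, and Ndufs5 has a single low GFP library at 16.8 CPM.

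Promoter windows are printed for 5 of the 6 complex I genes with the smallest p, and for Ndufaf8, the partner of Ndufaf5, because the factors are known to bind short DNA motifs, the CCAAT box for NF-Y and antioxidant response elements for NFE2L1. The windows run from 250 bases before to 50 bases after the gene's start in RefSeq's rat build GRCr8, which differs from the build named for the counts, and 41 of the 45 genes had one. Capitals mark CCAAT or its reverse complement ATTGG and TGACNNNGC or its reverse complement GCNNNGTCA, sought on both strands. Ndufaf2 and Ndufaf3, which were higher with each factor, hold both motifs, whereas Ndufa10, higher with each factor, and Ndufaf5, opposite between the factors, hold neither. The window of Ndufs4, the other of the 6 genes, holds neither and is not printed. Ndufv3, lower with Nfe2l1 and not called for Nfya, and Ndufaf8, higher with Nfe2l1 and at 0.00 for Nfya, hold the CCAAT motif alone.
Ndufaf2, chr2:41380714-41381013, minus strand: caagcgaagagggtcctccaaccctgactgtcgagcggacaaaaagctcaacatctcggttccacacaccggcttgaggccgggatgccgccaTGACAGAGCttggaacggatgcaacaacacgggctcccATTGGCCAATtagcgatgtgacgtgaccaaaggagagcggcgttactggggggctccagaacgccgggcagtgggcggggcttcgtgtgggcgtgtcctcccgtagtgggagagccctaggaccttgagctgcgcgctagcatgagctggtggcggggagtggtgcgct
Ndufaf3, chr8:118141674-118141973, minus strand: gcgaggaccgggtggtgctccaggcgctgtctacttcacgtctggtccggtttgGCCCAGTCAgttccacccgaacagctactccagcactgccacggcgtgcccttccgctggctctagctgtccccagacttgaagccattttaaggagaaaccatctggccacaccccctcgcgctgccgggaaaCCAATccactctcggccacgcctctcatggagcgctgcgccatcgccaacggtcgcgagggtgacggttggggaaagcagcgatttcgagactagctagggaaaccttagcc
Ndufa10, chr9:100489215-100489514, minus strand: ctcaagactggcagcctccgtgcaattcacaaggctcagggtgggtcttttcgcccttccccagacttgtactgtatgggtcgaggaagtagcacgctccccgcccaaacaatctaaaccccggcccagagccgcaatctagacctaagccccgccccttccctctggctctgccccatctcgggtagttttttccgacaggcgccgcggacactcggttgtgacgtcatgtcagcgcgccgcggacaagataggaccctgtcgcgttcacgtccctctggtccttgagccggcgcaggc
Ndufaf5, chr3:147961362-147961661, plus strand: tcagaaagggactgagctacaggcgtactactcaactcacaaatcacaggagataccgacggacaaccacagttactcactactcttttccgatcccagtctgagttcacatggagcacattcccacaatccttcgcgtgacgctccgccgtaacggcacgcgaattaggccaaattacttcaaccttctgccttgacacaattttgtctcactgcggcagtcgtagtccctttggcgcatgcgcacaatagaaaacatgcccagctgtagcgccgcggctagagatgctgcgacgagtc
Ndufv3, chr20:9613536-9613835, plus strand: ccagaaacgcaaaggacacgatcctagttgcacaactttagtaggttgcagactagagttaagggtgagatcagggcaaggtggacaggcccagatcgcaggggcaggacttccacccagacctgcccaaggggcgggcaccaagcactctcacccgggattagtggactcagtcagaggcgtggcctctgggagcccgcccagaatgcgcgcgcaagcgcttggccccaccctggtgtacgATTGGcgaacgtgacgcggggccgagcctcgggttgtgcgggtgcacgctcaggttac
Ndufaf8, chr10:105879658-105879957, plus strand: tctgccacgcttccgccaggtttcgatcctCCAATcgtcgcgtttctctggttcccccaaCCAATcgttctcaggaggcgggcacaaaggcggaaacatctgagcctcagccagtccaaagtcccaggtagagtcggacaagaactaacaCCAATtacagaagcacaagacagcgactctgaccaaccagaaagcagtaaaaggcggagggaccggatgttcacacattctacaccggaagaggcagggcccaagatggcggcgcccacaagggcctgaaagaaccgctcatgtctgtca

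In Ndufaf2 an ATTGG and a CCAAT stand side by side, beginning 119 and 114 bases before the start, after a TGACAGAGC that begins 157 bases before it. In Ndufaf3 a CCAAT begins 62 bases and a GCCCAGTCA 196 bases before the start. In Ndufv3 an ATTGG begins 8 bases before the start, and in Ndufaf8 a CCAAT begins 220, 190 and 100 bases before it. None of these matches overlap. The CCAAT motif occurred in 13 of the 41 complex I windows (31.7%), against 37.5% of all 33469 RefSeq windows, and the longer motif in 6 of 41 (14.6%), against 12.1%. Of the 13 genes with a CCAAT motif, 3 were called higher and 0 lower for Nfya against GFP, and of 27 tested genes without it 4 were called higher and 1 lower. Over all tested genes 24.3% were called higher and 27.9% lower in that comparison. Of the 6 genes with the longer motif, 2 were called higher and 0 lower for Nfe2l1 against GFP, and of 34 tested genes without it 4 were called higher and 5 lower. There 28.9% of all tested genes were called higher and 29.7% lower. A link between motif and call was not tested. The motif matches are letters in a window and do not show binding.

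Ndufa4, once counted with complex I and now placed with cytochrome c oxidase, had 50.6, 52.3 and 52.5 CPM in Nfya-labelled libraries, 54.0, 55.8 and 49.1 CPM in Nfe2l1-labelled libraries and 52.3, 50.1 and 56.1 CPM in GFP libraries. The groups overlapped and no comparison was called (adjusted p = 0.792, 0.961 and 0.751, edgeR). Its paralog Ndufa4l2, known as a hypoxia-induced gene, was barely detected. It had 1, 2 and 6 counts in Nfya-labelled libraries, 3, 2 and 4 counts in Nfe2l1-labelled libraries and 1 count in each GFP library. The count ratio scaled by library size was 2.87 for Nfya against GFP with a 95% exact interval of 0.716 to 16.5, and 2.82 for Nfe2l1 against GFP with an interval of 0.704 to 16.2. The intervals cover counting error only, and a difference was not detectable at this depth.

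The mitochondrially encoded core subunits, ND1 to ND6 and ND4L, come from the other genome that builds the complex. None of the 7 was called for Nfya against GFP, beside 52.2% of all tested genes. For Nfe2l1 against GFP 3 were called lower and 0 higher, beside 29.7% and 28.9% of all tested genes. ND2, a proton-pumping subunit, had 214.3, 216.9 and 213.4 CPM in Nfya-labelled libraries, 202.6, 210.0 and 185.4 CPM in Nfe2l1-labelled libraries and 226.5, 212.6 and 243.6 CPM in GFP libraries. All Nfe2l1-labelled libraries lay below all GFP libraries, and ND2 changed by -0.19 ± 0.05 (adjusted p = 0.00278, edgeR). ND1, the subunit at the ubiquinone entry, changed by -0.16 ± 0.05 (adjusted p = 0.00604) and ND6 by -0.14 ± 0.06 (adjusted p = 0.0392) in Nfe2l1 against GFP. For ND1 the libraries of these groups did not overlap, but for ND6 they did. As counts rather than CPM, ND5 held 2544, 2536 and 2591 in Nfya-labelled libraries, 2477, 2448 and 2484 in Nfe2l1-labelled libraries and 2532, 2565 and 2461 in GFP libraries, a much narrower spread than that of the library totals. ND4 was erratic, with 123, 24 and 247 counts in Nfya-labelled libraries, 238, 52 and 12 in Nfe2l1-labelled libraries and 40, 107 and 85 in GFP libraries.

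Small differences between the libraries of a group moved with sequencing depth in densely covered genes. ND1, ND2, ND5 and ND6 held 1.21, 1.34, 1.37 and 1.31 counts per base of gene length as a mean over the 9 libraries, the highest value of the whole table was 1.45, and 14 genes exceeded 1. GFP replicate 3 was the shallowest library and Nfe2l1-labelled replicate 3 the deepest. In CPM scaled by the library totals alone, the 4 densest ND genes were higher in GFP replicate 3 than in GFP replicate 2 by a median of 0.19 (log2) and higher in Nfe2l1-labelled replicate 2 than in replicate 3 by 0.15, whereas the medians over all tested genes were -0.04 and -0.03. Of the 16 complex I genes above 0.5 counts per base, 15 were higher in the shallower library of each pair, by a median of 0.10 and 0.12. Of the 9 with at most 0.25 counts per base, 4 and 6 were higher, with medians of -0.03 and 0.05.

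The number of complex I genes called lower depended on single libraries. For Nfe2l1 against GFP it was 6 with all libraries, 1 without Nfe2l1-labelled replicate 3, 2 without GFP replicate 3 and 3 without GFP replicate 1, and without GFP replicate 3 and Nfe2l1-labelled replicate 3 together, a choice made after seeing the data, it was 1. Ndufv3, with 0.277 counts per base, was the gene that stayed. For Nfya against GFP it was 2 with all libraries and 0 without GFP replicate 1 or 3, Nfya-labelled replicate 3 or Nfe2l1-labelled replicate 1 or 3, of which the Nfe2l1-labelled libraries enter that comparison only through the shared scaling and spread. The part of coverage in these falls, and in those of ND1, ND2 and ND6, was not tested.

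**Figure D4:**
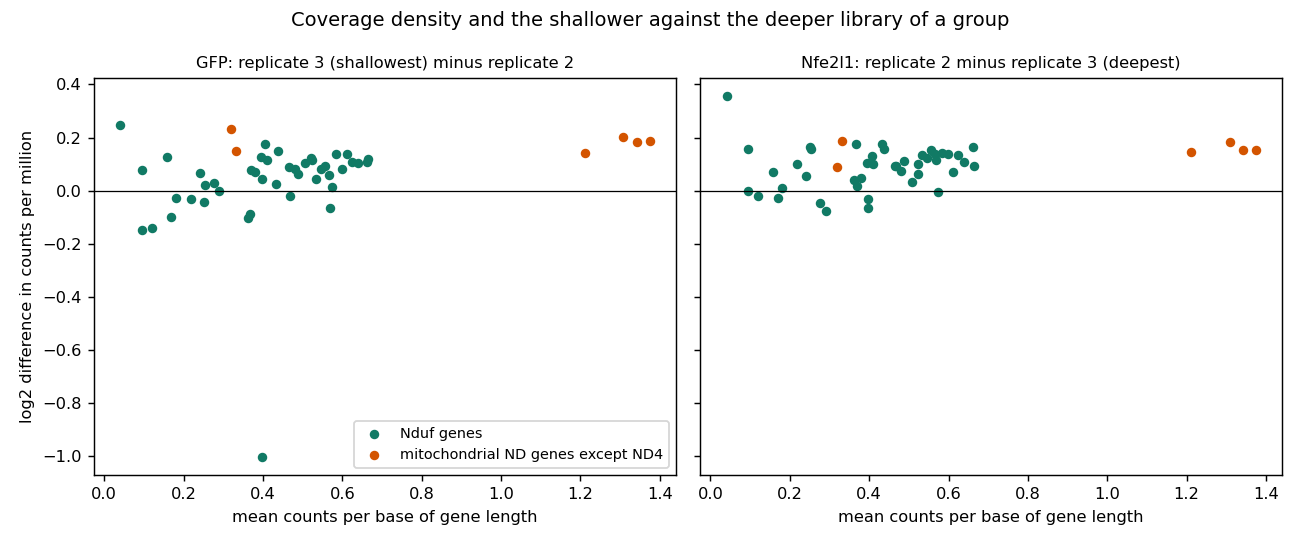
Log2 difference in CPM scaled by library totals (y axis) between the shallower and the deeper library of a group against mean counts per base of gene length (x axis) for the 44 tested complex I genes and 6 mitochondrial ND genes, for GFP replicate 3 minus replicate 2 and Nfe2l1-labelled replicate 2 minus replicate 3. Points above 0.5 counts per base lie mostly above 0, and the lowest point in the GFP panel is Ndufs5.

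The other genes of the pathway were read from lists, and their values are log2 fold changes against GFP unless stated otherwise. Of 12 tested complex I assembly factors not named Nduf, 3 were higher and 0 lower for Nfya, beside 52.2% of all tested genes called. For Nfe2l1 4 of them were higher and 1 lower, beside 58.6%. Their medians were 0.06 and 0.07. Ecsit, which works with Ndufaf1 in the membrane arm scaffold, was 0.34 ± 0.05 higher for Nfe2l1 (adjusted p = 9.12e-06) and 0.04 for Nfya (0.584, edgeR), and the difference between the factors was -0.30 ± 0.05 (adjusted p = 3.76e-05). Foxred1, an assembly factor related to oxidoreductases, was 0.27 ± 0.04 higher for Nfya (adjusted p = 5.07e-05) and 0.08 for Nfe2l1 (0.229), and the difference between the factors was 0.18 ± 0.04 (adjusted p = 0.00372, edgeR). Tmem70, which serves complex I and ATP synthase, was lower for Nfe2l1 (-0.16 ± 0.04, adjusted p = 0.00346, edgeR) and 0.06 for Nfya (0.284).

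In the other respiratory complexes, calls against GFP are set beside 52.2% of all tested genes for Nfya and 58.6% for Nfe2l1. Of 7 tested complex II genes, 0 were higher and 1 lower for Nfya and 1 higher and 2 lower for Nfe2l1. They were the assembly factors Sdhaf2 (-0.14 for Nfya, adjusted p = 0.00500, and -0.10 for Nfe2l1, 0.0403) and Sdhaf4 (0.38 for Nfe2l1, 0.00819) and the membrane anchor Sdhd (-0.11 for Nfe2l1, 0.0421, edgeR). Of 10 genes of complex III and cytochrome c, 1 was higher and 1 lower with each factor. Uqcrq, a small complex III subunit, was lower with each factor (-0.51 ± 0.06, adjusted p = 4.81e-06, for Nfya and -0.58 ± 0.06, 9.39e-07, for Nfe2l1), and Uqcrb, the other called subunit, was higher by 1.12 ± 0.36 (0.0152) and 0.99 ± 0.36 (0.0275, edgeR) at 9.17 CPM in Nfya-labelled, 8.34 in Nfe2l1-labelled and 4.16 in GFP libraries. Nfe2l1-labelled replicate 1, with 3.11 CPM, lay below all GFP libraries. Between the factors Cyc1, the cytochrome c1 subunit, was 0.13 ± 0.05 (adjusted p = 0.0463, edgeR). Of 14 complex IV genes, 1 was higher for Nfya and 0 for Nfe2l1, and none was lower. That gene was Cox4i2, the hypoxia-linked isoform of a regulatory subunit, at 2.68 CPM in Nfya-labelled, 1.19 in Nfe2l1-labelled and 1.05 in GFP libraries (1.33 ± 0.30 for Nfya, adjusted p = 0.00163, edgeR). Of 14 ATP synthase genes none was called in any comparison, with log2 fold changes from -0.09 to 0.07 for Nfya and from -0.10 to 0.07 for Nfe2l1.

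Genes upstream of complex I are set beside the same background. Of 11 iron-sulfur cluster assembly genes, 2 were higher and 1 lower for Nfya and 2 higher and 3 lower for Nfe2l1. Bola3, which helps to pass clusters to complex I, was higher by 0.38 ± 0.07 for Nfya (adjusted p = 2.13e-04) and 0.63 ± 0.06 for Nfe2l1 (3.31e-07). Lyrm4, a partner of the cysteine desulfurase, was higher for Nfe2l1 (0.42 ± 0.08, 1.71e-04, edgeR). Among the genes called lower, Fdx2 changed by -0.28 ± 0.07 for Nfya (adjusted p = 0.00276) and -0.31 ± 0.07 for Nfe2l1 (7.56e-04, edgeR). Of 13 mitochondrial biogenesis regulators, 2 were higher and 7 lower for Nfya (median -0.11) and 4 higher and 5 lower for Nfe2l1 (median -0.07). The PGC-1 family of coactivators split: Ppargc1a was higher by 0.32 ± 0.04 for Nfya (adjusted p = 4.96e-06) and 0.25 ± 0.04 for Nfe2l1 (4.58e-05), Ppargc1b was higher by 0.44 ± 0.06 for Nfya (6.16e-06) and -0.05 for Nfe2l1 (0.472), and Pprc1 was lower with each (-0.17 ± 0.03, 1.25e-04, for Nfya and -0.27 ± 0.03, 9.53e-07, for Nfe2l1, edgeR).

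In the authors' deposited tables of each factor against GFP, 44 of the complex I genes were listed. The authors' deposited table for Nfya held 7 of them as higher and 0 as lower at an FDR below 0.05, among 50.4% of all listed genes called. All 7 were called in the same direction here, and 2 genes, among them Ndufaf4, were called here alone. The authors' deposited table for Nfe2l1 held 6 as higher and 6 as lower, among 56.7% of all listed genes, and these were the 12 called here, each in the same direction.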

How the data were processed

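Messenger RNA of neonatal rat ventricular myocytes was sequenced from stranded libraries, 3 each for adenoviral Nfya, Nfe2l1 and GFP. The authors deposited whole-number counts per gene symbol and, per the file headers, RPKM values with gene lengths in bases. Their deposited edgeR tables hold log2 fold changes and log2 CPM, a likelihood ratio score, and a p-value and FDR per gene. The submitters' processing notes name featureCounts 1.6.0, edgeR 3.20.5, FastQC 0.11.4 and, as builds, rn6 beside mm10 and GRCm38. Aligner, duplicate handling and strand setting are not stated in these notes.

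The counts were tested with edgeR 4.0.16 in R 4.3.3 (filterByExpr, TMM scaling, quasi-likelihood F test, 1 fit of the 9 libraries on group alone), with Benjamini-Hochberg adjustment over 14151 genes and a threshold of 0.05. The steps were tested on simulated data. CPM were scaled by TMM library sizes, except in the comparison of library pairs by coverage, which used library totals, SEs were derived from the test score (size of the log2 fold change divided by the root of F), and levels per length are the deposited RPKM. Such SEs, and the intervals built on them, are too small for genes whose p-value is larger than that score alone gives. Library totals ran from 5712123 to 7310774 counts, and the precision of a value also depends on the gene's own counts and spread.

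The complex I genes, role groups, pathway and marker lists were chosen with earlier results of these data known. Values in every library are given for the 12 complex I genes with the smallest p, the gene of highest RPKM in each role and Ndufa4l2, other called genes are named, and each list is shown by up to 3 called genes of smallest p. Per-library values of Ndufs7, Ndufaf8 and the mitochondrial ND genes were added to these. Ndufs5 and the iron-sulfur cluster assembly gene Fdx2 were added after their values were seen. Results of 2 called genes are not reported here by name, though counts and medians include them. Alternatives were DESeq2 1.42.0, limma 3.58.1 voom, a likelihood ratio test, other scaling, filters, thresholds and count scale, a replicate block, 6 libraries per fit and leaving out libraries.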

Additional observations from a re-analysis of the deposited data

How the results depend on the processing

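The medians of complex I genes moved by less than the spread between replicates (an SD of 0.051, log2) under every alternative; leaving out 1 library gave 0.01 to 0.05 for Nfya against GFP, -0.06 to 0.02 for Nfe2l1 against GFP and 0.03 to 0.07 for Nfya against Nfe2l1, and the median for Nfe2l1 against GFP was 0.01 without a low-count filter. Counts of calls in small groups moved most. With DESeq2, complex I genes called higher were 2 for Nfya against GFP and 1 for Nfya against Nfe2l1, those called lower were 0 for Nfya against GFP, 1 for Nfe2l1 against GFP and 0 for Nfya against Nfe2l1, and all genes called lower were 2486 for Nfya against GFP and 2392 for Nfya against Nfe2l1. At an adjusted p below 0.01, 4 were higher and 0 lower for Nfya against GFP, 1 was lower for Nfe2l1 against GFP and 0 for Nfya against Nfe2l1. Lower calls for Nfya against GFP were 1 with DESeq2's size factors in edgeR, 1 with the replicate block and 0 without a filter, with at least 5 mean CPM, with only the 6 libraries compared and without replicate 3 of GFP and Nfe2l1. Lower calls for Nfe2l1 against GFP were 1 without a filter and 1 without both replicates 3. Lower calls for Nfya against Nfe2l1 were 2 with limma voom and 0 with DESeq2's size factors, no filter, at least 5 mean CPM or the replicate block. The cause of these changes was not tested. A ceiling of 1.6 counts per base was assumed as a setting and not estimated from the data. Inverting it left 33 of the 44 intervals within 1.2-fold for Nfya against GFP, 29 for Nfe2l1 against GFP and 33 between the factors. Some of these intervals were possibly too narrow.

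Leaving out 1 library gave 5 to 7 higher and 0 to 2 lower complex I genes for Nfya against GFP, 4 to 7 higher and 1 to 7 lower for Nfe2l1 against GFP, and 2 to 4 higher and 0 to 1 lower for Nfya against Nfe2l1. Over all genes it gave 3155 to 3915 higher and 3059 to 4034 lower for Nfya against GFP, 3878 to 4112 higher and 3666 to 4215 lower for Nfe2l1 against GFP, and 3150 to 3861 higher and 2984 to 3703 lower between the factors. The value of Ndufs5 for Nfya against GFP was -0.0394 without GFP replicate 3, the lowest of its values without 1 library (the highest was 0.385, without GFP replicate 2), and -0.0395 without replicate 3 of GFP and Nfe2l1. Of the values of named complex I genes under an alternative, 442 kept direction and side of the threshold, 113 fell back across it, 3 newly passed it and 2, those of Ndufs5, turned.

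No pairing by replicate number was seen: same-numbered libraries deviated from their group means with correlations of -0.038 to 0.064, and 0 of 9 exceeded 0.1. That check could not exclude pairing, because counting error made up much of the spread and pulls such correlations toward 0. The chi-square per gene is about 1 for counting error alone. Over all tested genes it ran from 0.97 (Nfya-labelled replicates 1 and 2) to 1.67 (GFP replicates 2 and 3). Among genes under 0.1 counts per base it ran from 1.22 (Nfya-labelled replicates 1 and 2) to 1.37 (Nfe2l1-labelled replicates 1 and 2). With the replicate block 6 complex I genes were higher and 1 lower for Nfya against GFP, 5 higher and 6 lower for Nfe2l1 against GFP, and 3 higher and 0 lower for Nfya against Nfe2l1. Depth limits genes with few counts, such as Ndufs6 and Ndufa4l2.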
